A study of Mus musculus with 18 samples.

Results

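Pla2g4c, Pnliprp2, Pla2g4a, Pla2g6, Pla2g10 and Pla2g12a are 6 of the 24047 genes in a table of RNA-Seq read counts from mouse colon crypts. They were taken from the table by symbol, and all 6 had counts in all 18 libraries. Pla2g4c and Pnliprp2 head the set because they were chosen from their values in these same libraries, so their differences between groups are given as a description, without a test. The other 4 were added as relatives that colon epithelium expresses, and they were tested. The libraries were made from crypts released with EDTA from the colon of C57BL/6 mice and held back on a strainer, and they form 6 groups of 3. GF-WT and GF-Ern2-/- came from germ-free mice, COLONIZED-WT and COLONIZED-Ern2-/- from germ-free mice given cecal homogenate of specific-pathogen-free WT donors 14 days earlier, and CONV-WT and CONV-Ern2-/- from conventionally raised mice. The deletion of Ern2 is in the whole animal, ages are not given in the labels, and nothing in the labels states that the 3 libraries of a group came from separate mice, so the p-values measure the spread between these libraries.

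Phospholipases A2 cut a fatty acid from the middle position of a membrane phospholipid and leave a lysophospholipid. When the fatty acid is arachidonic acid, cyclooxygenases and lipoxygenases turn it into prostaglandins and leukotrienes, and the lysophospholipid can be acylated again or act as a signal. The cytosolic enzymes (Pla2g4 genes), the calcium-independent enzyme Pla2g6 and the secreted enzymes (such as Pla2g10 and Pla2g12a) differ in where they work. Pnliprp2 is a lipase of the pancreatic lipase family that also acts on phospholipids and galactolipids. Its relative Pnlip needs colipase, encoded by Clps, to work in the presence of bile salts. Ern2, also known as IRE1β, is an endoplasmic reticulum stress sensor of intestinal epithelium.

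In the mm10 build, with positions from GENCODE vM21, Pla2g4c lies at chr7:13324655-13360672 and Pnliprp2 at chr19:58759719-58777534, both on the plus strand. Pla2g12a, also on the plus strand, lies at chr3:129878606-129895825. On the minus strand, Pla2g4a lies at chr1:149829618-149961290, Pla2g6 at chr15:79286228-79328390 and Pla2g10 at chr16:13715057-13730983. All 6 are annotated as protein coding. The antisense gene Pla2g10os overlaps Pla2g10 and the antisense gene Gm20420 overlaps Pla2g6. The strand setting of the read counting is not given in the sources used here, so the counts of both are uncertain to that extent.

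Sequences before RefSeq transcript starts of both leading genes are shown because both genes were high in the same WT groups. Each is 210 bases of RefSeq sequence (build GRCm38.p6, plus strand) that ends 41 bases before a RefSeq transcript start, and RefSeq gives Pla2g4c 2 starts. Both Pla2g4c windows lie inside the GENCODE span of the gene, which begins at chr7:13324655. Capitals mark the match described next.
Pla2g4c, first start, chr7:13325417-13325626: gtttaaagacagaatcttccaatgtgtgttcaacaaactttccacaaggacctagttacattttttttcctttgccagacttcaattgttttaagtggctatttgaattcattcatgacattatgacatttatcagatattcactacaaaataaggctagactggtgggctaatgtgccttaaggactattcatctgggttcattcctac
Pla2g4c, second start, chr7:13329072-13329281: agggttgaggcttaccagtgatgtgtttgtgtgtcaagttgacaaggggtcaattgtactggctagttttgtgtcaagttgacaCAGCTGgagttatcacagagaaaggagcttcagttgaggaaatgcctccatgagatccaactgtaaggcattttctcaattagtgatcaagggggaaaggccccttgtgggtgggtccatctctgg
Pnliprp2, chr19:58759473-58759682: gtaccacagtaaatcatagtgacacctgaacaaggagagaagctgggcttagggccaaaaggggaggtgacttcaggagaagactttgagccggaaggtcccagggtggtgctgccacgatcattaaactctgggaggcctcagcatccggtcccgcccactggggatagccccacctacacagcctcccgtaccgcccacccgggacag
These windows and those of other genes were searched on both strands, and the share of all 32817 RefSeq windows of this length and position that hold each is given with it. GATAAG, the core that GATA factors bind, occurs in 5.67% of the windows. TTTATG, bound by CDX factors, occurs in 9.16% of them. The E-box CAGCTG, bound by Bhlha15 and related factors, occurs in 10.8%. TGACGT, the core of sites bound by Xbp1, occurs in 4.76%. The STAT motif TTCNNNGAA occurs in 6.01%, and the HNF4 motif CAAAGTCCA in 0.308%. The 1 match in the 3 windows was the E-box before the second Pla2g4c start, 166 to 161 bases before that start.

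Total counts ran from 5865619 to 23154481 per library, and the shallowest were CONV-Ern2-/- replicates 3 and 2 and CONV-WT replicate 3. The normalized count of Ern2 was 1909 to 3100 in the 9 WT libraries. In libraries labelled GF-Ern2-/- it was 2877, 386 and 3336, in COLONIZED-Ern2-/- 2567, 1325 and 1885, and in CONV-Ern2-/- 998, 1622 and 1487. Several libraries labelled Ern2-/- therefore lay inside or above the WT range, which is why they are called by their labels. Reads summed over a gene do not show whether its allele is disrupted, so these counts do not settle the genotype. The 10 epithelial markers summed to between 166319 and 250411 normalized counts in every library. The summed goblet cell markers (13 genes, Ang4 and Retnlb among them) ranged from 108388 to 682785 in CONV-WT and from 69372 to 92027 in CONV-Ern2-/-, and from 340681 to 457426 in COLONIZED-WT against 157287 to 305113 in COLONIZED-Ern2-/-. CONV-WT replicate 3 had the 108388, against 592731 and 682785 in the other CONV-WT libraries. A library was given the Y-linked pattern when its summed counts of Ddx3y, Eif2s3y, Kdm5d and Uty exceeded a set fraction of its Xist count. None of the GF-WT libraries had the pattern, against 1 from CONV-WT and all 3 from CONV-Ern2-/-. COLONIZED-WT, GF-Ern2-/- and COLONIZED-Ern2-/- had 2 each. Y-linked expression as a term in a fit means this pattern, present or absent.

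Pla2g4c, a member of the cytosolic group that does not need calcium, was nearly silent in germ-free WT crypts and among the higher family members in WT crypts with microbes. Its normalized counts (read counts divided by a size factor for each library) were 16.9, 19.6 and 26.4 for GF-WT, 3468, 1101 and 1692 for COLONIZED-WT, and 8373, 2556 and 3572 for CONV-WT. Neither group with microbes overlapped GF-WT, while COLONIZED-WT and CONV-WT overlapped each other. The fitted log2 difference from GF-WT was 6.64 ± 0.55 (SE, n = 3 per group), a 100-fold difference, for COLONIZED-WT and 7.84 ± 0.50, or 229-fold, for CONV-WT. Omitting COLONIZED-WT replicate 1 gave 6.06 for the former, and omitting CONV-WT replicate 1 gave 7.18 for the latter.

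In libraries labelled Ern2-/- the same gene stood at 25.4, 20.1 and 86.5 for GF, 89.0, 241 and 88.3 for COLONIZED, and 239, 1138 and 152 for CONV. Both groups with microbes lay above GF-Ern2-/-, though COLONIZED-Ern2-/- cleared its highest library only narrowly. The log2 differences from GF-Ern2-/- were 1.67 ± 0.59 (3.18-fold) for COLONIZED-Ern2-/- and 3.52 ± 1.04 (11.5-fold) for CONV-Ern2-/-. CONV-Ern2-/- replicate 2 carried much of the latter, which was 2.15 without it and 4.48 without GF-Ern2-/- replicate 3. The COLONIZED difference was 1.02 without COLONIZED-Ern2-/- replicate 2 and 2.61 without GF-Ern2-/- replicate 3.

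Set against WT under the same conditions, Pla2g4c was 15.0-fold lower in COLONIZED-Ern2-/- (log2 difference −3.90 ± 0.68) and 9.51-fold lower in CONV-Ern2-/- (−3.25 ± 0.74), with no overlap in either. The CONV difference was −4.62 without CONV-Ern2-/- replicate 2 and −2.60 without CONV-WT replicate 1. The COLONIZED difference was −4.57 when COLONIZED-Ern2-/- replicate 2 was omitted and −3.32 when COLONIZED-WT replicate 1 was. Between the germ-free groups the difference was 1.07 ± 0.62 with overlapping libraries, and it was 0.12 without GF-Ern2-/- replicate 3, the library at 86.5. The response to conventional microbes in Ern2-/- minus that in WT was −4.32 ± 1.02 on the log2 scale, and the same difference for colonization was −4.97 ± 0.96. When 1 library was omitted the former ranged from −5.69 (CONV-Ern2-/- replicate 2) to −3.37 (GF-Ern2-/- replicate 3), and the latter from −5.62 (COLONIZED-Ern2-/- replicate 2) to −4.03 (GF-Ern2-/- replicate 3). COLONIZED-Ern2-/- replicate 1, whose Ern2 count lay in the WT range, had 89.0 normalized counts of Pla2g4c, below every COLONIZED-WT library.

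Pnliprp2 was low in all 9 libraries labelled Ern2-/- and high only in WT libraries with microbes. Normalized counts were 16.9, 16.8 and 37.5 for GF-WT, 362, 83.0 and 241 for COLONIZED-WT, and 1259, 587 and 184 for CONV-WT. The Ern2-/- label gave 13.4, 26.1 and 11.5 for GF, 15.0, 13.5 and 8.02 for COLONIZED, and 15.7, 35.5 and 13.8 for CONV. The WT groups with microbes overlapped neither GF-WT nor any group labelled Ern2-/-, and the 3 Ern2-/- groups overlapped one another. GF-Ern2-/- and CONV-Ern2-/- also overlapped GF-WT, while every COLONIZED-Ern2-/- library lay below every GF-WT library.

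The log2 difference of Pnliprp2 from GF-WT was 3.27 ± 0.49 (9.65-fold) in COLONIZED-WT and 4.82 ± 0.67 (28.3-fold) in CONV-WT. With 1 library omitted these ranged from 2.77 to 3.78 and from 4.01 to 5.32, lowest without replicate 1 of the group with microbes and highest without GF-WT replicate 3. From GF-Ern2-/- it was −0.47 ± 0.63 in COLONIZED-Ern2-/- and 0.34 ± 0.69 in CONV-Ern2-/-, both within 1 SE of 0. The 95% intervals of these differences were −1.70 to 0.75 and −1.01 to 1.69. Relative to WT, it was 18.6-fold lower in COLONIZED-Ern2-/- (−4.22 ± 0.48) and 31.5-fold lower in CONV-Ern2-/- (−4.98 ± 0.70), and the latter was −4.17 without CONV-WT replicate 1. The response in Ern2-/- minus that in WT was −4.49 ± 0.92 for conventional microbes and −3.74 ± 0.78 for colonization. Omitting 1 library at a time gave −5.03 to −3.68 and −4.24 to −3.24 in turn.

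**Figure D1:**
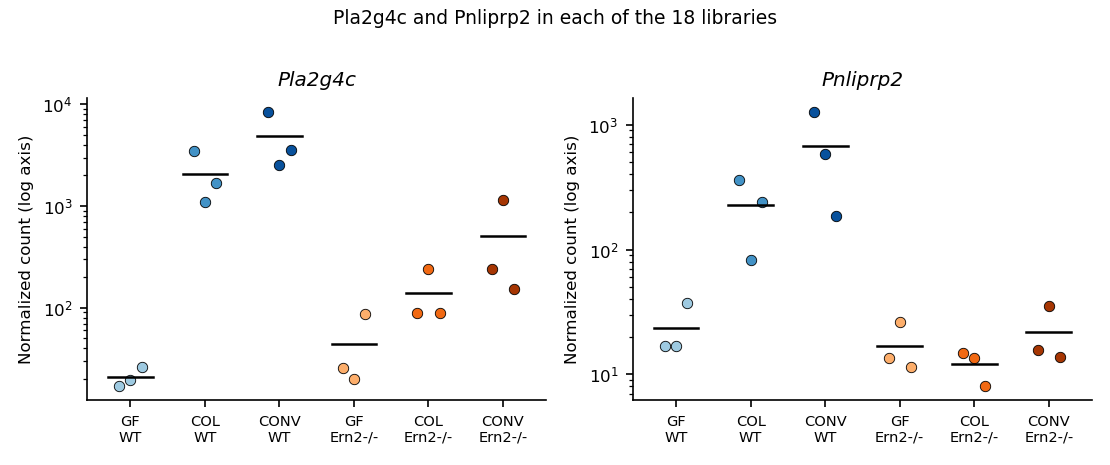
Normalized counts (log axis) of Pla2g4c and Pnliprp2, with 1 point per library, 3 libraries in each of the 6 groups and a black bar at the group mean. COL stands for COLONIZED. Pla2g4c in libraries labelled Ern2-/- is above its germ-free range with microbes, at 88.3 to 1138, whereas Pnliprp2 stays between 8.02 and 35.5.

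Ordered by mean, Pla2g4c fell from CONV-WT (4834 ± 3107, SD, n = 3) through COLONIZED-WT (2087 ± 1232), CONV-Ern2-/- (509 ± 546), COLONIZED-Ern2-/- (140 ± 88.2) and GF-Ern2-/- (44.0 ± 36.9) to GF-WT (21.0 ± 4.88). Neighbours overlapped at each step of that order except between COLONIZED-Ern2-/- and GF-Ern2-/-. For Pnliprp2 the order was CONV-WT (677 ± 543), COLONIZED-WT (228 ± 140), GF-WT (23.7 ± 11.9), CONV-Ern2-/- (21.7 ± 12.1), GF-Ern2-/- (17.0 ± 7.93) and COLONIZED-Ern2-/- (12.2 ± 3.65), and the 1 step without overlap lay between COLONIZED-WT and GF-WT.

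The library with the Y-linked pattern was the highest of its group for both genes in CONV-WT, and both such libraries were above the third in COLONIZED-WT. GF-WT had none, so libraries without the pattern were also compared alone. There Pla2g4c was 16.9 to 26.4 in the 3 GF-WT libraries, 1101 in COLONIZED-WT replicate 2, and 2556 and 3572 in CONV-WT replicates 2 and 3. Pnliprp2 was 16.8 to 37.5, then 83.0, then 587 and 184. With Y-linked expression as a term in the fit, the log2 differences from GF-WT were 7.18 and 5.72 for Pla2g4c and 4.01 and 1.81 for Pnliprp2, for CONV-WT and COLONIZED-WT in turn. As GF-WT lacks the pattern, the COLONIZED-WT values of that fit rest on replicate 2 alone, and the CONV-WT values on replicates 2 and 3.

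In bulk crypts, fewer cells of a type and less RNA per cell cannot be told apart. Goblet markers were lower with the Ern2-/- label in both CONV and COLONIZED libraries, without overlap, so each gene was also expressed as a percentage of the summed goblet markers of its library. Pla2g4c stood at 0.00601% to 0.00939% in GF-WT, 0.293% to 1.02% in COLONIZED-WT and 0.431% to 3.30% in CONV-WT. In CONV-Ern2-/- it was 0.219% to 1.24%. Replicate 2, at 1.24%, overlapped CONV-WT, while replicates 1 and 3, at 0.301% and 0.219%, lay below it. In COLONIZED-Ern2-/- Pla2g4c was 0.0292% to 0.153%, which lay below COLONIZED-WT without overlap. GF-Ern2-/- stood at 0.0103% to 0.0859%, so on this scale COLONIZED-Ern2-/- overlapped its germ-free group. Pnliprp2 was 0.0990% to 0.184% of the goblet sum in CONV-WT and 0.0197% to 0.0386% in CONV-Ern2-/-, which did not overlap. After colonization it was 0.0221% to 0.106% with the WT label and 0.00482% to 0.00859% with the Ern2-/- label, again without overlap. GF-Ern2-/- stood at 0.00560% to 0.0133%, so on this scale Pnliprp2 in CONV-Ern2-/- lay above its germ-free group, which it overlapped in normalized counts, and COLONIZED-Ern2-/- overlapped that group. CONV-WT replicate 3, with the lowest goblet sum of the WT groups, had 3572 normalized counts of Pla2g4c, above CONV-WT replicate 2, and the lowest Pnliprp2 of its group.

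Because Pnliprp2 and Clps are best known from the pancreas, markers of pancreatic acinar cells were read in every library. Of 22 such genes in the table, 8 were at 0 in all 18 libraries, among them Pnlip, Cpa1, Prss1, Amy2a5 and Cela3b, and 14 had at most 5 normalized counts in any library. The sum over the list, which includes Clps, was 15452 to 17902 in GF-WT, 6021 to 8708 in COLONIZED-WT and 2374 to 10264 in CONV-WT. With the Ern2-/- label it was 12025 to 17105 in GF, 2403 to 6749 in COLONIZED and 1321 to 2862 in CONV. Both germ-free groups lay above all others. Most of this sum came from Cela1, Sycn and Spink3, which stood at 6564, 7426 and 3780 in GF-WT replicate 1 and at 785, 298 and 167 in CONV-Ern2-/- replicate 1. The summed Paneth cell markers (8 genes) were 26.1 to 42.0 in GF-WT, 174 to 320 in COLONIZED-WT, 351 to 1644 in CONV-WT, 22.9 to 199 in GF-Ern2-/-, 36.0 to 147 in COLONIZED-Ern2-/- and 39.7 to 62.2 in CONV-Ern2-/-. Like Pnliprp2 they were highest in the WT groups with microbes, apart from 199 in GF-Ern2-/- replicate 2, but COLONIZED-Ern2-/- replicate 1 had the 147, above GF-WT, with Pnliprp2 at 15.0. Nearly all of the Paneth sum in CONV-WT was Itln1, at 1629, 807 and 338. Tuft cell markers (7 genes) were 903 to 1166 in GF-WT, 1865 to 3337 in COLONIZED-WT, 1311 to 4387 in CONV-WT, 888 to 1853 in GF-Ern2-/-, 1944 to 3956 in COLONIZED-Ern2-/- and 2766 to 3937 in CONV-Ern2-/-, so every group with microbes lay above its germ-free group. The part of these 3 lists in the results for Pla2g4c and Pnliprp2 was not tested.

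The 4 other phospholipases A2 were expressed in every library and differed far less between groups. A gene was called at a DESeq2 Benjamini-Hochberg adjusted p below 0.01 over all genes, and edgeR's quasi-likelihood test was run beside it. By that rule 11.0% of all tested genes were called between CONV-WT and GF-WT, 18.3% between COLONIZED-WT and GF-WT, 4.33% between CONV-Ern2-/- and GF-Ern2-/-, and 7.17% between COLONIZED-Ern2-/- and GF-Ern2-/-. Of the 4 genes, Pla2g12a was called in both WT comparisons, Pla2g10 in the CONV comparison of Ern2-/-, and none in the COLONIZED comparison of Ern2-/-. At the same threshold edgeR called 22, 630, 4 and 27 genes in the 4 comparisons, none of them a member of these 4.

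Pla2g12a, a small secreted enzyme of atypical structure, rose with microbes in WT. Its normalized counts were 133, 198 and 192 for GF-WT, 384, 264 and 372 for COLONIZED-WT, and 346, 401 and 382 for CONV-WT, without overlap between GF-WT and either group. The log2 differences were 0.97 ± 0.23 (DESeq2 adjusted p = 0.00036, edgeR 0.0166) for COLONIZED-WT and 1.10 ± 0.24 (DESeq2 adjusted p = 9.0e-05, edgeR 0.0306) for CONV-WT. With 1 library omitted the call held in 5 of 6 fits for CONV-WT (DESeq2 adjusted p = 0.0177 without CONV-WT replicate 2) and in 4 of 6 for COLONIZED-WT (at most 0.0163, without COLONIZED-WT replicate 1). With Y-linked expression in the fit, which rests on COLONIZED-WT replicate 2 alone, the COLONIZED-WT difference was 0.60. In libraries labelled Ern2-/- the counts were 139, 146 and 198 for GF, 221, 305 and 361 for COLONIZED, and 266, 187 and 284 for CONV. The differences from GF-Ern2-/- were 0.87 ± 0.28 (DESeq2 adjusted p = 0.0190) and 0.61 ± 0.31 (DESeq2 adjusted p = 0.246). The response did not differ between genotypes at the threshold, at −0.09 ± 0.36 for colonization and −0.50 ± 0.34 for conventional microbes (DESeq2 adjusted p = 0.998 and 0.760), with 95% intervals of −0.80 to 0.62 and −1.17 to 0.18.

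Pla2g10, a secreted enzyme that is active on phosphatidylcholine-rich membranes, was the most abundant of the 6 per length in germ-free crypts. It stood at 1627, 1315 and 1191 normalized counts for GF-WT, 960, 1503 and 1157 for COLONIZED-WT, and 1177, 972 and 464 for CONV-WT. In libraries labelled Ern2-/- it was 1642, 1399 and 1099 for GF, 1364, 650 and 955 for COLONIZED, and 536, 720 and 563 for CONV. The CONV-Ern2-/- libraries were all below GF-Ern2-/-, a log2 difference of −1.19 ± 0.25 (DESeq2 adjusted p = 0.00016, edgeR 0.0360). Without GF-Ern2-/- replicate 1 the DESeq2 adjusted p was 0.0115. In CONV-WT the difference from GF-WT was −0.67 ± 0.37 (DESeq2 adjusted p = 0.213), and the responses of the 2 genotypes differed by −0.53 ± 0.45 (DESeq2 adjusted p = 0.835). The antisense Pla2g10os, whose reads cannot be told apart from those of Pla2g10 where the counting ignores strand, had 31.3 to 157 normalized counts.

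Pla2g4a, the calcium-dependent cytosolic enzyme that prefers arachidonic acid and supplies most prostaglandin synthesis, was lowest in CONV-Ern2-/-. Normalized counts were 1137, 1023 and 916 for GF-WT, 877, 821 and 913 for COLONIZED-WT, 1456, 1189 and 612 for CONV-WT, 1092, 949 and 744 for GF-Ern2-/-, 1115, 992 and 896 for COLONIZED-Ern2-/-, and 569, 571 and 350 for CONV-Ern2-/-. Every CONV-Ern2-/- library lay below every other library. The difference from COLONIZED-Ern2-/- was a 2.00-fold decrease (log2 SE 0.23, DESeq2 adjusted p = 0.00054, edgeR 0.0291), in a comparison that called 8.59% of genes. Without COLONIZED-Ern2-/- replicate 1 that DESeq2 adjusted p was 0.0240. From GF-Ern2-/- the difference was −0.90 ± 0.28 (DESeq2 adjusted p = 0.0258), and from CONV-WT −1.12 ± 0.39 (DESeq2 adjusted p = 0.0637). Between CONV-WT and COLONIZED-WT it was not called, but without CONV-WT replicate 3, the library at 612, the difference was 0.59 (DESeq2 adjusted p = 0.0033). CONV-Ern2-/- holds the 2 shallowest libraries, with 127 and 257 raw reads of Pla2g4a.

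Pla2g6, the calcium-independent enzyme that takes part in membrane remodelling, was not called in any of the 9 comparisons between groups. The lowest library had 187 normalized counts (CONV-WT replicate 1) and the highest 472 (CONV-Ern2-/- replicate 1), and group means ran from 212 ± 11.9 in GF-WT to 342 ± 115 in CONV-Ern2-/-. Its smallest DESeq2 adjusted p was 0.0377, for a difference of 0.44 ± 0.17 between COLONIZED-WT and GF-WT, whose libraries did not overlap.

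**Figure D2:**
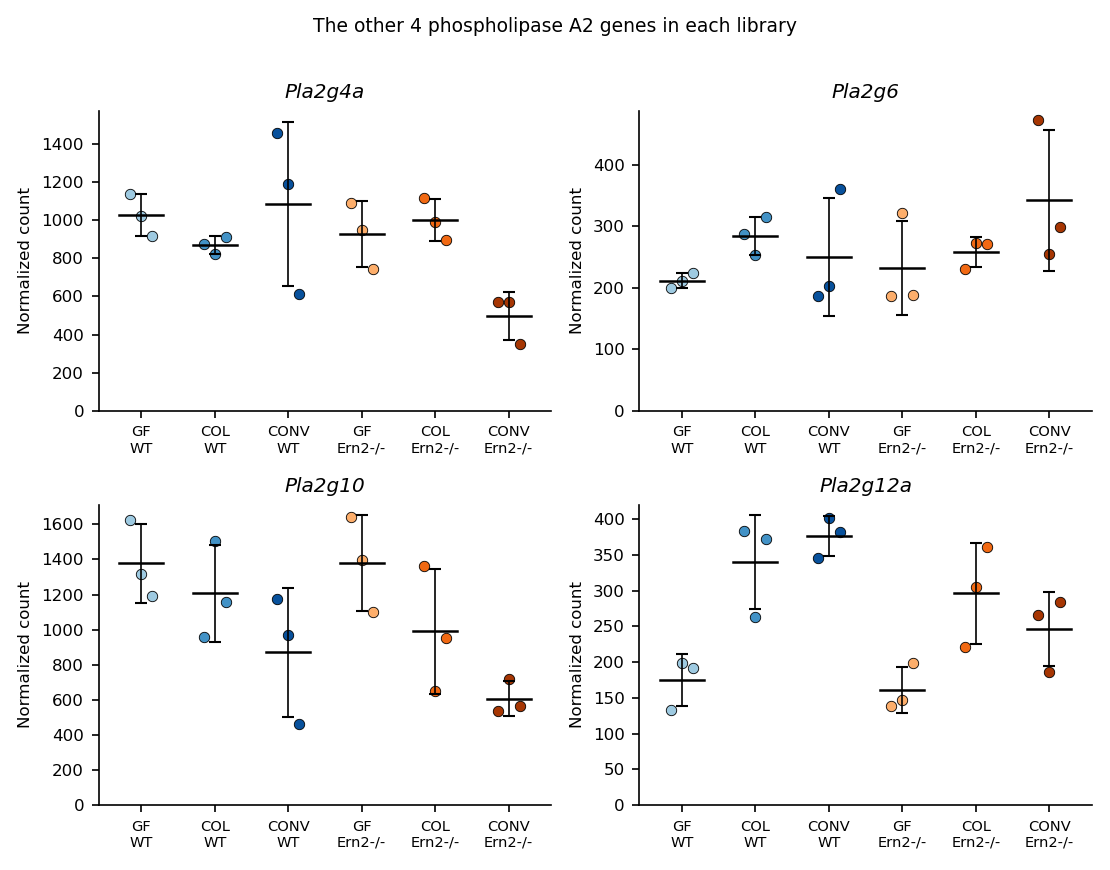
Normalized counts (linear axis from 0) of Pla2g4a, Pla2g6, Pla2g10 and Pla2g12a, with 1 point per library, a bar at the group mean and SD as the error bar (n = 3 per group). Pla2g12a is lowest in both germ-free groups, and Pla2g4a is lowest in CONV-Ern2-/-, at 350 to 571.

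Levels of the genes can be compared per length, here as normalized counts per kilobase of merged GENCODE exons. In GF-WT the order was Pla2g10 (916 ± 149.5, SD, n = 3), Pla2g4a (160 ± 17.3), Pla2g12a (47.4 ± 9.81), Pla2g6 (38.9 ± 2.19), Pnliprp2 (15.1 ± 7.58) and Pla2g4c (5.60 ± 1.30). In CONV-WT it was Pla2g4c (1290 ± 829), Pla2g10 (579 ± 244), Pnliprp2 (430 ± 345), Pla2g4a (170 ± 67.5), Pla2g12a (102 ± 7.56) and Pla2g6 (46.0 ± 17.6). Pla2g4c thus moved from the last place to the first between these groups. In CONV-Ern2-/- Pla2g10 was again first (403 ± 66.1), with Pla2g4c at 136 ± 146.

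**Figure D3:**
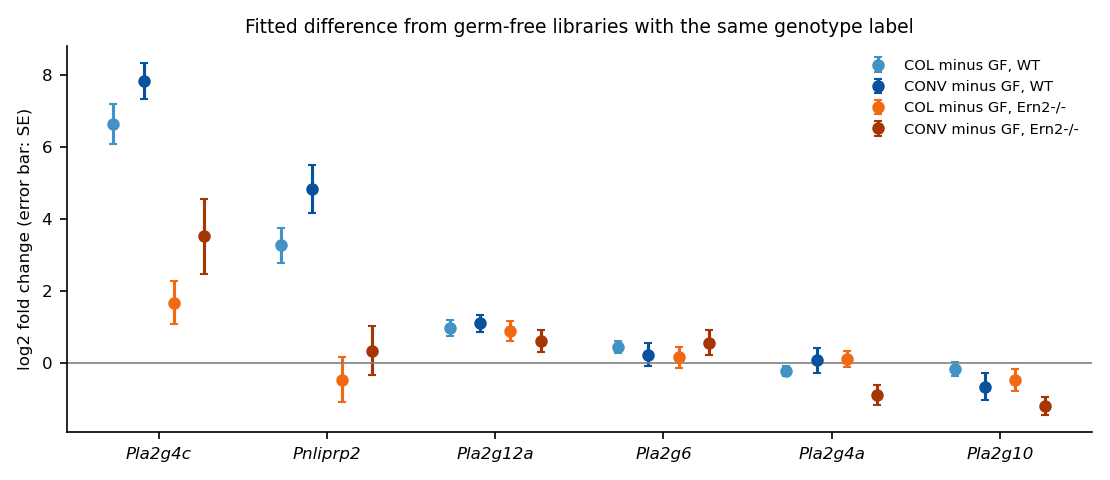
Fitted log2 fold change of each of the 6 genes from the germ-free group with the same genotype label, with SE as the error bar. Pla2g4c in WT lies at 6.64 and 7.84 and Pnliprp2 in WT at 3.27 and 4.82, while the other 4 genes lie between −1.19 and 1.10 in all 4 comparisons.

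The rest of the phospholipase A2 family was read from a list of 33 genes, of which 30 had counts and 29 remained without Pla2g4c. Between CONV-WT and GF-WT, 5 of 24 tested family genes were called (20.8%, beside 11.0% of all genes), 4 higher and 1 lower. Their median log2 difference was −0.06, beside −0.0011 over all genes tested. Pla2g2a, a bactericidal secreted enzyme in strains that have it, rose by 3.14 ± 0.79 (DESeq2 adjusted p = 0.0013), Pla2g16, a small phospholipase of lipid droplets and membranes, by 1.45 ± 0.20 (DESeq2 adjusted p = 1.3e-10), and Pla2g12a and Pnpla3 as well. GENCODE annotates Pla2g2a as a polymorphic pseudogene, so its RNA does not show that these C57BL/6 mice make the enzyme. Pla2g5 overlaps Pla2g2a on the other strand, so the counts of Pla2g2a carry the same uncertainty as those of Pla2g10. Pla2g4f, another cytosolic member, fell from 250, 191 and 137 normalized counts to 50.9, 23.7 and 20.1 (−2.59 ± 0.45, DESeq2 adjusted p = 5.7e-07). With Y-linked expression in the fit the DESeq2 adjusted p of Pla2g2a was 0.0126. With 1 library omitted at a time Pla2g2a kept its call in 3 of 6 fits, with a DESeq2 adjusted p of 0.0282 without CONV-WT replicate 2, and Pla2g16 and Pla2g4f in all 6. Omitting CONV-WT replicate 2 left 2 called family genes, and omitting replicate 3 gave 8, without the share of all genes in those fits beside them. edgeR called none of the 29, and 10 of them had an unadjusted DESeq2 p below 0.05.

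Between COLONIZED-WT and GF-WT, 5 of 24 tested family genes were called, all higher (20.8%, beside 18.3% of all genes), with a median of 0.07 beside −0.01 over all genes. Pla2g2a rose by 2.38 ± 0.52 (DESeq2 adjusted p = 7.1e-05), Pla2g3, a secreted enzyme of the bee venom type, by 1.55 ± 0.28 (DESeq2 adjusted p = 1.2e-06), and Pla2g16 by 1.08 ± 0.16 (DESeq2 adjusted p = 6.1e-10). With Y-linked expression in the fit, which rests on COLONIZED-WT replicate 2 alone, Pla2g2a and Pla2g3 lost their calls. edgeR called 1, Pla2g16 (edgeR adjusted p = 0.0051).

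Between CONV-Ern2-/- and GF-Ern2-/- the called family genes were 3 of 23 tested (13.0%, beside 4.33%), with Pla2g3 higher by 2.20 ± 0.44 (DESeq2 adjusted p = 4.2e-05), and Pla2g2f, a secreted enzyme, lower by a log2 difference of −2.72 ± 0.56 (DESeq2 adjusted p = 9.2e-05), beside Pla2g10. Between COLONIZED-Ern2-/- and GF-Ern2-/- they were 2 of 23 (8.70%, beside 7.17%), Pla2g3 higher by 1.31 ± 0.26 (DESeq2 adjusted p = 3.6e-05) and Pnpla2, the adipose triglyceride lipase, lower (−0.60 ± 0.15, DESeq2 adjusted p = 0.0021). The CONV difference of Pla2g2f was −3.91 without CONV-Ern2-/- replicate 2, and that of Pla2g3 was 1.61 without CONV-Ern2-/- replicate 1. With 1 library omitted Pla2g2f kept its call in 4 of 6 fits (DESeq2 adjusted p = 0.0307 without GF-Ern2-/- replicate 2) and Pnpla2 in 2 of 6 (0.0261 without COLONIZED-Ern2-/- replicate 3). The family medians were −0.04 in both, beside −0.0077 and −0.02 over all genes, and edgeR called none. Pla2g3 stood at 167, 168 and 89.6 normalized counts for GF-WT and at 234, 199.5 and 336 for CONV-WT. It was 271, 256 and 156 for GF-Ern2-/- and 1740, 480 and 913 for CONV-Ern2-/-, and the COLONIZED libraries had 304, 419 and 509 with the WT label and 642, 517 and 540 with the Ern2-/- label. CONV-Ern2-/- had the highest mean but overlapped COLONIZED-Ern2-/-, since its replicate 2 lay below all 3 libraries of that group.

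Between genotypes, 4 of 23 tested family genes were called under CONV conditions (17.4%, beside 3.03% of all genes). Pla2g3 was higher in CONV-Ern2-/- by 2.03 ± 0.49 (DESeq2 adjusted p = 0.0017), and Pla2g2a (−3.49 ± 0.79), Pla2g2f and Pla2g16 (−1.61 ± 0.19, DESeq2 adjusted p = 2.0e-13) were lower. Leaving out CONV-WT replicate 2 gave 1 called gene and leaving out replicate 3 gave 10, and Pla2g3 and Pla2g2a were each called in 2 of 6 such fits. The share of all genes called in these fits is not given here, so a shift over all genes cannot be told apart. The difference of Pla2g2a was −4.75 without CONV-Ern2-/- replicate 2, and that of Pla2g3 was 1.42 without CONV-Ern2-/- replicate 1. After colonization 1 of 23 was called (4.35%, beside 1.37%), Pla2g16 at −0.88 ± 0.17 (DESeq2 adjusted p = 3.2e-05). Summed goblet markers were also lower without overlap in both genotype comparisons (108388 to 682785 in CONV-WT, 69372 to 92027 in CONV-Ern2-/-). Their part in the lower Pla2g2a, Pla2g2f and Pla2g16 was not tested. DESeq2 called none of the 29 between the germ-free groups, where 0.0349% of all genes were called and 1 of the 29 had an unadjusted p below 0.05, and none of 24 between CONV-WT and COLONIZED-WT, where 0.119% of all genes were called and 7 had an unadjusted p below 0.05. Between CONV-Ern2-/- and COLONIZED-Ern2-/- it called 4 of 23 (17.4%, beside 8.59%). edgeR called 1 family gene in the last of these comparisons and none in the others. Over all genes edgeR called 35 in the last, 1 between COLONIZED genotypes and 0 in each of the others.

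**Figure D4:**
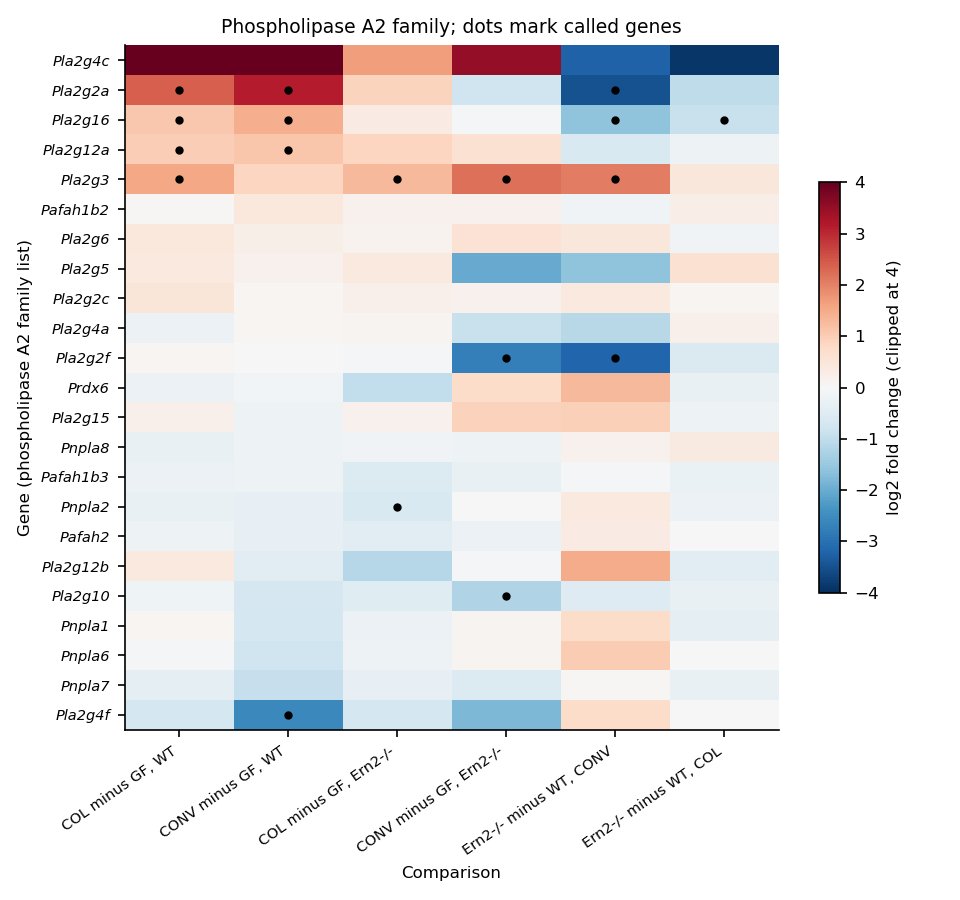
Log2 fold change (colour, clipped at 4) of the 23 phospholipase A2 family genes with a mean normalized count of at least 20, in 6 comparisons, with dots on genes called by DESeq2 and Pla2g4c shown without a call. Pla2g2a, Pla2g16 and Pla2g12a are called in both WT columns and in neither Ern2-/- column, and Pla2g3 is called in both Ern2-/- columns and in COLONIZED-WT. With Y-linked expression in the fit, Pla2g2a lost its call in both WT columns, and Pla2g12a and Pla2g3 lost theirs in COLONIZED-WT. That COLONIZED-WT fit rests on replicate 2 alone. Of these 4 genes only Pla2g16 was called in a test of the response between genotypes, for conventional microbes.

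Whether a response differed between genotypes was tested as an interaction. For conventional microbes 0.177% of all genes were called, and 1 of 23 family genes, Pla2g16 (−1.49 ± 0.29, DESeq2 adjusted p = 0.00049, edgeR 0.284). Pla2g16 stood at 701, 760 and 546 normalized counts for GF-WT, 1823, 2019 and 1667 for CONV-WT, 744, 586 and 509 for GF-Ern2-/-, and 607, 667 and 527 for CONV-Ern2-/-. CONV-WT was above the other 3 groups without overlap. For colonization 0.0280% of all genes were called by DESeq2 and none of the 29 family genes, 1 of which had an unadjusted p below 0.05. The difference of Pla2g16 there was −0.75 ± 0.28 (DESeq2 adjusted p = 0.844).

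Among 18 lipase genes, 16 with counts, Clps moved most like Pnliprp2. Clps encodes colipase, the cofactor of pancreatic lipase. Its normalized counts were 83.0, 112 and 90.9 for GF-WT, 399, 281 and 388 for COLONIZED-WT, 1528, 1030 and 424 for CONV-WT, 45.5, 43.1 and 42.7 for GF-Ern2-/-, 94.0, 31.5 and 68.2 for COLONIZED-Ern2-/-, and 37.6, 84.4 and 27.6 for CONV-Ern2-/-. Each WT group with microbes was above every library of GF-WT and of the Ern2-/- groups. Clps rose by 1.91 ± 0.22 in COLONIZED-WT (DESeq2 adjusted p = 9.7e-16, edgeR 0.0045) and by 3.37 ± 0.46 in CONV-WT (DESeq2 adjusted p = 6.1e-11, edgeR 0.0190). It was lower in COLONIZED-Ern2-/- than in COLONIZED-WT (−2.46 ± 0.32, DESeq2 adjusted p = 8.5e-12) and, under CONV conditions, lower with the Ern2-/- label (−4.32 ± 0.57, DESeq2 adjusted p = 2.2e-11). Its response to conventional microbes differed between genotypes by −3.20 ± 0.66 (DESeq2 adjusted p = 0.0017, edgeR 0.431), and without CONV-WT replicate 1 the DESeq2 adjusted p was 0.0228. Goblet markers were also lower with the Ern2-/- label in both genotype comparisons, and their part in the lower Clps was not tested.

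Among the tested lipases, only Clps was called higher in both WT comparisons with GF. Without Pnliprp2 but with Clps, DESeq2 called 3 of 11 tested in CONV-WT against GF-WT (27.3%, beside 11.0% of all genes). There Lipa, the lysosomal acid lipase, fell by 1.64 ± 0.37 and Lipg, the endothelial lipase, by 1.54 ± 0.34 (DESeq2 adjusted p = 0.00021 and 0.00013). In COLONIZED-WT DESeq2 called 3 of 11, again with Clps (27.3%, beside 18.3%). Dagla, a diacylglycerol lipase, was higher by 0.71 ± 0.18 and Lipg was at −0.80 ± 0.22 (DESeq2 adjusted p = 0.0011 and 0.0024). In CONV-Ern2-/- against GF-Ern2-/- it called 1 of 11 (9.09%, beside 4.33%), Mgll, the monoacylglycerol lipase (1.66 ± 0.47, DESeq2 adjusted p = 0.0089). Among these, Dagla kept its call in 4 of 6 fits that left out 1 library, Lipg in COLONIZED-WT in 2 and Mgll in 1. With Y-linked expression in the fit, which rests on COLONIZED-WT replicate 2 alone, Dagla and Lipg lost their calls in COLONIZED-WT. They were at edgeR adjusted p = 0.0164 and 0.0308. In COLONIZED-Ern2-/- DESeq2 called none of 11 (beside 7.17%), with 4 at an unadjusted p below 0.05, and edgeR called none.

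**Figure D5:**
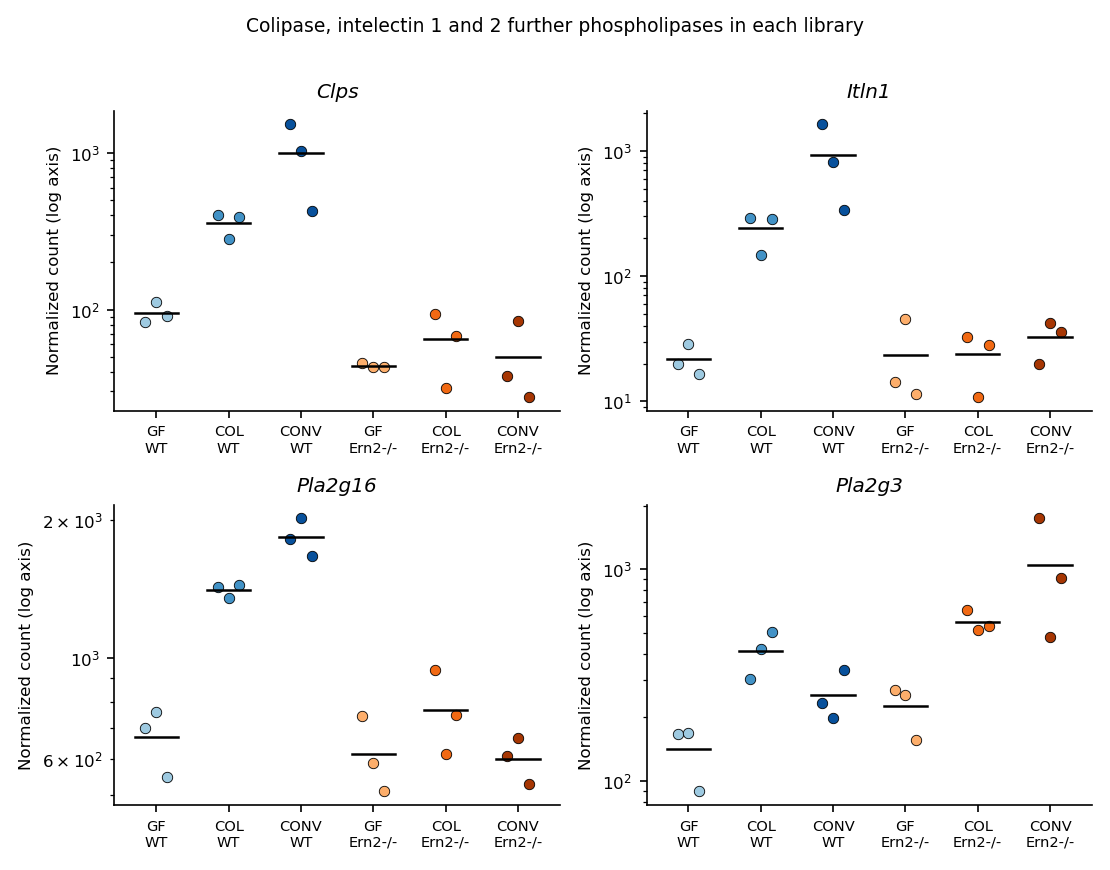
Normalized counts (log axis) of Clps, Itln1, Pla2g16 and Pla2g3, with 1 point per library and a bar at the group mean (3 libraries per group). Clps, Itln1 and Pla2g16 are highest in CONV-WT, and Pla2g3 has its highest mean in CONV-Ern2-/-, at 480 to 1740, which overlaps COLONIZED-Ern2-/-.

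Genes that use the products were read from a list of 42 eicosanoid genes, 40 with counts. In WT, DESeq2 called 5 of 28 tested in CONV (17.9%, beside 11.0%) and 8 of 28 in COLONIZED (28.6%, beside 18.3%). Alox5, the 5-lipoxygenase that starts leukotriene synthesis, rose by 1.70 ± 0.51 with conventional microbes and by 1.35 ± 0.25 with colonization (DESeq2 adjusted p = 0.0080 and 2.2e-06), and the CONV-WT libraries overlapped GF-WT. Ltc4s, the leukotriene C4 synthase, rose by 1.48 ± 0.43 and 1.14 ± 0.34 (DESeq2 adjusted p = 0.0057 and 0.0052). Alox5ap, which presents arachidonic acid to the 5-lipoxygenase, rose in COLONIZED-WT by 1.22 ± 0.30 and Ptges3, a prostaglandin E synthase and co-chaperone, in CONV-WT by 0.89 ± 0.20 (DESeq2 adjusted p = 0.00070 and 0.00025). With 1 library left out, Alox5, Ltc4s and Ptges3 were each called in 1 of 6 fits in CONV-WT (DESeq2 adjusted p = 0.105, 0.120 and 0.0392 without CONV-WT replicate 2), Ltc4s in 1 of 6 and Alox5ap in 4 of 6 in COLONIZED-WT. With Y-linked expression in the fit, the CONV-WT calls of Alox5, Ltc4s and Ptges3 were lost (DESeq2 adjusted p = 0.0661, 0.0907 and 0.0231). The COLONIZED-WT calls of Alox5, Ltc4s and Alox5ap were lost too, in a fit that rests on COLONIZED-WT replicate 2 alone. A replicate block lost Alox5 and Ltc4s in CONV-WT (DESeq2 adjusted p = 0.0160 and 0.0354) and Ltc4s in COLONIZED-WT (0.0426). The summed tuft cell markers moved with Alox5, Alox5ap and Ltc4s, at 903 to 1166 in GF-WT, 1865 to 3337 in COLONIZED-WT and 1311 to 4387 in CONV-WT, and their part in these differences, and in the higher Alox5 of CONV-Ern2-/-, where they were 2766 to 3937 against 888 to 1853 in GF-Ern2-/-, was not tested.

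On the prostaglandin side, Ptger3, a receptor of prostaglandin E2, fell in all 4 comparisons with germ-free crypts. Its normalized counts were 153, 158 and 218 for GF-WT, 29.2, 36.7 and 27.0 for COLONIZED-WT, 67.0, 40.5 and 32.9 for CONV-WT, 153, 128 and 112 for GF-Ern2-/-, 47.0, 21.6 and 25.1 for COLONIZED-Ern2-/-, and 18.8, 24.4 and 22.1 for CONV-Ern2-/-. The germ-free groups were above all others. The log2 differences were −1.90 ± 0.36 in CONV-WT, −2.50 ± 0.27 in COLONIZED-WT, −2.62 ± 0.41 in CONV-Ern2-/- and −2.06 ± 0.38 in COLONIZED-Ern2-/- (DESeq2 adjusted p = 5.2e-06, 2.1e-17, 5.3e-08 and 3.6e-06). Slco2a1, the prostaglandin transporter, fell in CONV-WT (−2.81 ± 0.55, DESeq2 adjusted p = 1.5e-05) and in COLONIZED-Ern2-/- (−1.97 ± 0.36, DESeq2 adjusted p = 2.4e-06). Hpgd, which inactivates prostaglandins, fell in COLONIZED-WT (−1.37 ± 0.23, DESeq2 adjusted p = 7.8e-08) and COLONIZED-Ern2-/- (−1.41 ± 0.37, DESeq2 adjusted p = 0.0027), and Ptger4, another prostaglandin E2 receptor, in COLONIZED-WT (−0.55 ± 0.16, DESeq2 adjusted p = 0.0038). Hpgd in COLONIZED-Ern2-/- kept its call in 3 of 6 fits with 1 library omitted and Ptger4 in 1 of 6, while Ptger3 was called in all 6 in CONV-WT. Hpgd stood at 4222, 11340 and 5013 normalized counts for GF-Ern2-/-, and without replicate 2 its difference was −0.82. Summed colonocyte markers (10 genes) in these libraries were 209492, 634002 and 171901, and their part in this difference was not tested. With Y-linked expression in the fit, which rests on COLONIZED-WT replicate 2 alone, Hpgd and Ptger4 lost their calls in COLONIZED-WT.

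In CONV-Ern2-/- against GF-Ern2-/-, 3 of 25 tested eicosanoid genes were called (12.0%, beside 4.33%), Alox5 (1.69 ± 0.34) and Ptgs1, the constitutive cyclooxygenase (1.77 ± 0.40), higher and Ptger3 lower (DESeq2 adjusted p = 6.3e-05 and 0.00043 for the first 2). In COLONIZED-Ern2-/- against GF-Ern2-/-, 3 of 26 were called (11.5%, beside 7.17%), the lower Ptger3, Slco2a1 and Hpgd given above. Alox5 marks tuft cells as well as immune cells, and its response to conventional microbes differed between genotypes by −0.02 ± 0.63 (DESeq2 adjusted p = 0.998). Summed immune markers (15 genes) were 1596 to 2633 in GF-WT, 1989 to 4345 in COLONIZED-WT and 446 to 2797 in CONV-WT. With the Ern2-/- label they were 1003 to 1688 in GF, 1142 to 2815 in COLONIZED and 638 to 1030 in CONV. CONV-WT replicate 3 had the 446 and, at 104, the lowest Alox5 of its group. The part of immune cells in Alox5 was not tested. Against CONV-WT, CONV-Ern2-/- had more Slco2a1 (2.91 ± 0.66) and Mgst3, a glutathione transferase (0.94 ± 0.22), with DESeq2 adjusted p = 0.00066 and 0.0011, which were the 2 called of 23 tested (8.70%, beside 3.03%). Slco2a1 stood at 103, 176 and 274 normalized counts for CONV-WT and at 2881, 602 and 640 for CONV-Ern2-/-, and its difference was 1.74 without CONV-Ern2-/- replicate 1. With 1 library omitted Slco2a1 kept its call in 4 of 6 fits and Mgst3 in 3 of 6. DESeq2 called none of 23 between genotypes after colonization (beside 1.37%), with 4 at an unadjusted p below 0.05, and none of 25 and 40 in the interaction tests (beside 0.177% and 0.0280%), with 1 at an unadjusted p below 0.05 in each. edgeR called none in these 3, and of the 42 it called 3, all in COLONIZED-WT against GF-WT. Over all genes edgeR called 1, 0 and 0 in the former and 630 in COLONIZED-WT against GF-WT.

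Genes that handle the lysophospholipid formed a list of 25, all with counts. In WT, DESeq2 called 2 of 23 in CONV (8.70%, below the 11.0% of all genes), Acsl3 (−1.27 ± 0.37) and Mboat1 (−1.03 ± 0.31), which make acyl-CoA and acylate lysophospholipids (DESeq2 adjusted p = 0.0066 and 0.0077), and 1 of 23 in COLONIZED (4.35%, below the 18.3% of all genes), the receptor Lpar1 (−0.49 ± 0.15, DESeq2 adjusted p = 0.0053). In libraries labelled Ern2-/-, 1 of 23 was called in each comparison (4.35%, beside 4.33% in CONV and 7.17% in COLONIZED), Lpcat4, a lysophospholipid acyltransferase, at 2.64 ± 0.43 in CONV and 2.58 ± 0.40 in COLONIZED (DESeq2 adjusted p = 1.2e-07 and 2.8e-08). Lpcat4 stood at 41.5, 193 and 213 normalized counts for GF-WT and at 37.3, 119 and 52.1 for GF-Ern2-/-. With 1 library left out, Acsl3 was called in 3, Mboat1 in 2 and Lpar1 in 2 of 6 fits. Lpar1 lost its call with Y-linked expression in the fit, which rests on COLONIZED-WT replicate 2 alone. Its DESeq2 adjusted p was 0.0821 in the fit of all 18 libraries. edgeR called none of the 25 in any comparison. The responses of Lpcat4 did not differ between genotypes at the threshold (1.87 ± 0.78 and 1.81 ± 0.69, DESeq2 adjusted p = 0.381 and 0.844).

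Gdpd3, a lysophospholipase D, was higher in Ern2-/- than in WT under CONV conditions (2.66 ± 0.40, DESeq2 adjusted p = 1.3e-08, edgeR 0.0604) and after colonization (2.00 ± 0.39, DESeq2 adjusted p = 6.9e-05, edgeR 0.144, and 1.38 without COLONIZED-Ern2-/- replicate 2). It had 42.4, 39.5 and 67.6 normalized counts for CONV-WT and 195, 338 and 408 for CONV-Ern2-/-, and in GF-Ern2-/- 58.9, 18.0 and 346. The library at 346 was GF-Ern2-/- replicate 3, which was also the highest germ-free library for Pla2g4c. After colonization Lpcat4 exceeded its WT level in Ern2-/- by 0.70 ± 0.18 (DESeq2 adjusted p = 0.0066), a call kept in 2 of 6 fits with 1 library left out. Lipa was higher in CONV-Ern2-/- than in CONV-WT by 2.13 ± 0.31 (DESeq2 adjusted p = 2.5e-09). The summed colonocyte markers (10 genes) moved with this comparison, at 71235 to 326582 in CONV-WT and 398103 to 558475 in CONV-Ern2-/-. Their part in the higher Lipa, Slco2a1, Mgst3, Gdpd3 and Pla2g3 of CONV-Ern2-/- was not tested.

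Among 10852 genes with a mean of at least 50 normalized counts, those whose log2 values ran most like Pla2g4c over the 18 libraries included Fn1 (Pearson r = 0.944), Gadd45g (0.941), Ang4 (0.939), Meg3 (0.935), Bhlha15 (0.929), Nr4a2 (0.908) and Prkrip1 (0.902). Those most like Pnliprp2 were Itln1 (0.955), Clps (0.942), Retnlb (0.915), Fermt3 (0.900), Chrm3 (0.886), Pla2g16 (0.883), Ang4 (0.880) and Dixdc1 (0.875). Ang4, a goblet cell antimicrobial ribonuclease, was the 1 gene on both lists, and Pla2g4c and Pnliprp2 had r = 0.829 with each other, which placed Pnliprp2 at rank 71 for Pla2g4c and Pla2g4c at rank 26 for Pnliprp2. The coefficients describe 18 libraries that share 6 groups and differ in depth, and they are not independent points.

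Ang4 stood at 122, 96.0 and 733 normalized counts for GF-WT, 24426, 17347 and 7728 for CONV-WT, and 937, 3824 and 723 for CONV-Ern2-/-. As with Pla2g4c, CONV-Ern2-/- replicate 2 was the highest of its group. Itln1, a secreted lectin, stood at 20.0, 28.7 and 16.7 for GF-WT, 291, 147 and 287 for COLONIZED-WT, 14.2, 45.1 and 11.5 for GF-Ern2-/-, and 19.8, 42.2 and 35.9 for CONV-Ern2-/-. As with Pnliprp2, its CONV-Ern2-/- libraries overlapped GF-Ern2-/-. Bhlha15, a transcription factor of secretory cells, had 36.1, 33.6 and 26.4 for GF-WT, 481, 438 and 303 for CONV-WT, and 75.2, 180 and 85.5 for CONV-Ern2-/-, where again replicate 2 was the highest.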

How the data were processed

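The authors made stranded mRNA libraries, sequenced them single-end, aligned the reads to mm10 with STAR in the VIPER pipeline and deposited raw counts per gene symbol. Which annotation, software versions and strand option the counting used is not given in the sources used here. From these counts, 9 pairs of groups (6 libraries each) and 2 interactions (12 libraries each) were fitted with DESeq2 1.42.0 in R 4.3.3, with default filtering, no shrinkage and no covariate. Genes were called at an adjusted p below 0.01 over all genes. Values per library use size factors over all 18 libraries. The members and lists were chosen with earlier results of these data known. From each list, up to 3 called genes per direction with a mean of at least 20 with the largest change were named for each comparison with GF, and up to 2 for genotype comparisons and interactions. The 8 genes most like each leading gene were ranked on log2(normalized count + 1). Some genes that these rules would name are not reported here. Alternatives were edgeR 4.0.16 with TMM, other filters, a replicate block, Y-linked expression as covariate, a fit of all 18 libraries, and leaving out each library. The fitting steps were first run on simulated counts with known changes, as a check of the code and not of the calls.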

Additional observations from a re-analysis of the deposited data

Results flagged for a closer look

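The response to conventional microbes differed between the genotype labels, by a test of the difference itself, for 2 genes of the lists. For Pla2g16 the response in Ern2-/- was lower by a log2 difference of −1.49 ± 0.29 (DESeq2 adjusted p = 0.00049). It was called in 10 of the 12 fits that left out 1 library, and leaving out CONV-WT replicate 1 gave a DESeq2 adjusted p of 0.0135. For Clps the difference was −3.20 ± 0.66 (DESeq2 adjusted p = 0.0017), and it was called in 6 of those 12 fits. edgeR gave adjusted p = 0.284 and 0.431. Summed goblet markers were 208874 to 331338 in GF-WT and 108388 to 682785 in CONV-WT. With the Ern2-/- label they were 100703 to 239747 in GF and 69372 to 92027 in CONV. Their part in the 2 differences was not tested. Pla2g4c and Pnliprp2 were not tested because they were chosen from these values.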

How the results depend on the processing

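With 3 libraries per group, calls depended on the tool. edgeR called 0 family genes in CONV-WT against GF-WT, 1 in COLONIZED-WT against GF-WT, 0 in both Ern2-/- comparisons with GF, 0 in both genotype comparisons with microbes, 1 in CONV-Ern2-/- against COLONIZED-Ern2-/- and 0 in the CONV interaction. Over all genes it called 22 and 630 in the WT comparisons with GF, and 4 (CONV) and 27 (COLONIZED) in those of Ern2-/-. It called 0 between CONV genotypes, 1 between COLONIZED genotypes, 35 in CONV-Ern2-/- against COLONIZED-Ern2-/- and 0 in the CONV interaction. Where it called almost no gene at all, a family count of 0 carries no information. With Y-linked expression as covariate, the log2 differences moved to 7.18 (Pla2g4c, CONV-WT), 5.72 (Pla2g4c, COLONIZED-WT), 1.81 (Pnliprp2, COLONIZED-WT) and 2.06 (Pla2g4c, GF-Ern2-/- against GF-WT). The COLONIZED-WT values of that fit rest on COLONIZED-WT replicate 2 alone, and the germ-free value on GF-Ern2-/- replicate 3 alone. Over the alternatives that kept all libraries, the difference between CONV genotypes ran from −4.04 to −3.24 for Pla2g4c and from −5.88 to −4.81 for Pnliprp2. That of Pla2g4c in CONV-Ern2-/- against GF-Ern2-/- ran from 3.27 to 4.48. The labels number the libraries 1 to 3 in each group without tying numbers to animals, and in none of the 9 comparisons did all 3 same-numbered pairs have a correlation of deviations over 0.1. The lowest pair of a comparison ranged from −0.28 to 0.09, though single pairs reached 0.63. With a replicate block the family count was 5 in CONV-Ern2-/- and 1 in COLONIZED-Ern2-/- against GF-Ern2-/-. The low-count filter, no independent filtering and the fit of all 18 libraries moved no family count beyond 1.5 times and no difference of Pla2g4c or Pnliprp2 beyond the spread between replicates. Among calls of single genes, edgeR lost 51. Y-linked expression as covariate lost 19 and gained 1. In COLONIZED-WT against GF-WT it lost Pla2g12a, Pla2g2a, Pla2g3, Dagla, Lipg, Alox5, Alox5ap, Ltc4s, Hpgd, Ptger4 and Lpar1. Between CONV genotypes it lost Pla2g3 and Mgst3. With this covariate the first of these comparisons rests on COLONIZED-WT replicate 2 alone. The second has CONV-WT replicate 1 alone on the WT side, so these losses cannot be read as an adjustment. In CONV-WT against GF-WT the covariate lost Pla2g2a, Alox5, Ltc4s and Ptges3 (DESeq2 adjusted p = 0.0126, 0.0661, 0.0907 and 0.0231). It also lost Mgll in CONV-Ern2-/- against GF-Ern2-/- (0.0612) and Lpcat4 between COLONIZED genotypes (0.0109). It gained Pla2g12a in COLONIZED-Ern2-/- against GF-Ern2-/- (0.0054). The replicate block lost 6 and gained 2. Lost were Alox5 and Ltc4s in CONV-WT and Ltc4s in COLONIZED-WT against GF-WT (0.0160, 0.0354 and 0.0426), Pnpla2 in COLONIZED-Ern2-/- against GF-Ern2-/- (0.0126), Mgst3 between CONV genotypes (0.0159) and Lpcat4 between COLONIZED genotypes (0.0330). Gained was Pla2g4a in CONV-Ern2-/- against GF-Ern2-/- and against CONV-WT (0.0087 and 0.0043). The fit of all 18 libraries lost 11 calls and gained 2. Lost in COLONIZED-WT against GF-WT were Pla2g2a, Dagla, Lipg, Alox5ap, Ltc4s, Ptger4 and Lpar1 (DESeq2 adjusted p = 0.0154, 0.243, 0.0263, 0.0937, 0.0601, 0.263 and 0.0821). Lost elsewhere were Mgll in CONV-Ern2-/- (0.137) and Slco2a1 in COLONIZED-Ern2-/- (0.0165) against GF-Ern2-/-, and Gdpd3 and Lpcat4 between genotypes after colonization (0.131 and 0.592). Gained were Pla2g12a in COLONIZED-Ern2-/- against GF-Ern2-/- (0.0050) and Pla2g4a between CONV genotypes (0.0013). Without independent filtering, Mgll was at 0.0112.

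Leaving out 1 library at a time gave family counts of 2 to 8 (CONV-WT against GF-WT), 3 to 6 (COLONIZED-WT against GF-WT), 1 to 5 (CONV-Ern2-/- against GF-Ern2-/-), 1 to 4 (COLONIZED-Ern2-/- against GF-Ern2-/-), 1 to 10 (CONV genotype comparison), 1 to 3 (COLONIZED genotype comparison), 0 to 5 (CONV-WT against COLONIZED-WT), 2 to 8 (CONV-Ern2-/- against COLONIZED-Ern2-/-) and 0 to 4 (CONV interaction). The log2 difference of Pla2g4c ranged from 2.15 to 4.48 in CONV-Ern2-/- against GF-Ern2-/-, from −4.62 to −2.60 between CONV genotypes, from 0.12 to 1.40 between germ-free genotypes and from 0.51 to 2.52 in CONV-Ern2-/- against COLONIZED-Ern2-/-. The cause of these changes was not tested, and the share of all genes called in each such fit was not set beside the family counts. Raw reads of Pnliprp2 were 5 to 16 per library in CONV-Ern2-/-, and those of Pla2g4c 22 to 38 in GF-WT, so these low levels carry counting error.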
